A study of Microtus ochrogaster with 23 samples.

Results

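Virgin “Parental” males and “Mother” females both care for pups, but they reach this behavior by different routes, and their dentate gyrus (DG) methylomes are set side by side here. The comparison held 12 of the 23 prairie voles (*Microtus ochrogaster*) profiled by reduced representation bisulfite sequencing (RRBS). All 12 were adult and wild type, and each had been exposed to an unfamiliar conspecific pup before the DG was punched from frozen brain sections. The 6 “Parental” voles were sexually naive males that responded to the pup with spontaneous parental care. The 6 “Mother” voles were females that had been paired with a male, had given birth and lived with their offspring until the test soon after birth, whereas the virgin males stayed with a same-sex sibling. Sex, mating, pair bonding and birth therefore differ together between both groups and cannot be told apart. The 5 “Father” voles, pair-bonded males tested with the same pup exposure, and the 6 “Attacker” voles, virgin males that attacked the pup, are given as further male values. Each library came from the DG of 1 animal and holds all cell types of the tissue, so that a change in cell makeup and a change within cells are not separated. DNA methylation gives no test of the labelled tissue by its marker genes.

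RRBS cuts DNA with MspI and reads mainly CpG-rich sequence. Each cytosine's methylation level is given as the percentage of reads that stayed C after bisulfite treatment. A cytosine was kept if it had 10 or more reads in 4 or more “Parental” and 4 or more “Mother” voles. Without chromosome X, 1285301 were kept. These were averaged in 1-kb windows with at least 3 of them, of which 59237 could be tested. Libraries held 69692806 to 103389420 cytosine calls in “Parental” and 68110536 to 100129133 in “Mother” voles, and a covered cytosine had a median of 21 to 31 reads across the 12 animals.

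CpG methylation near gene starts is generally low, and dense methylation there goes with silent genes. In female mammals an X chromosome is silenced in each cell, and CpG islands on the silent copy are methylated, whereas males carry a single active X. These facts are background for the regions described here, several of which hold genes that are X-linked in mouse and human although the vole assembly puts them elsewhere. In the brain, parental care is tied to oxytocin, vasopressin, prolactin and steroid signaling, and the DG is a site of adult neurogenesis.

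Averaged over the genome, no difference between “Parental” and “Mother” voles was detected. The mean level over the 38993 windows measured in all 12 animals had a lowest, median and highest value of 13.2%, 13.7% and 14.50% in “Parental” and of 13.2%, 13.6% and 13.8% in “Mother” voles. The groups overlapped, and the difference of 0.15 points (SE 0.21) did not pass an exact permutation test (two-sided, p = 0.545, adjusted p = 0.545 over 4 per-animal tests). The smallest p that 6 against 6 animals allow is 0.0022. The sign of so small a difference depended on 1 animal, since it was -0.0087 without “Parental” replicate 6.

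A small number of windows differed, and nearly all of these were hypermethylated in “Mother” voles. At an adjusted p under 0.05 in limma and a difference of at least 15 points, 39 windows were called, or 0.0658% of those tested. Of these, 36 were higher in “Mother” (0.0608% of all windows) and 3 in “Parental” voles (0.00506%). The 36 windows shared a profile. Their median level was 0.60% in “Parental” and 19.6% in “Mother” voles, and no “Parental” mean among them exceeded 2.48%. In 38 of the 39 windows the animals of both groups did not overlap, against 0.716% of all windows (0.449% higher in “Mother” and 0.267% higher in “Parental” voles). The calls were made on these same levels, so that the lack of overlap adds no support to them. The “Father” and “Attacker” males, which took no part in the calls, lay closer to the “Parental” than to the “Mother” mean in 361 of 372 values at the 36 windows. At 30 of the 36, all of these other males were below the lowest “Mother” vole.

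Of the called windows, 8 lay at genes placed on a chromosome, and all 8 were higher in “Mother” voles. The one with the smallest p lies in Hs6st2, a sulfotransferase of heparan sulfate chains (LG10: 17581000-17581999 of MicOch1.0, within the gene span and centred 934 bp from an end of it). Its 92 cytosines had a lowest, median and highest level of 0.23%, 0.65% and 3.07% in “Parental” and of 16.1%, 19.4% and 26.8% in “Mother” voles. The groups were far apart, with a difference of -18.86 points (SE 1.60, limma adjusted p = 0.0023). The “Father” and “Attacker” animals reached at most 2.43% and 3.19%.

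Cask, a scaffold kinase of the synapse, had its called window 615 bp from an end of the gene (chromosome 10: 40339000-40339999). The level was 0%, 0% and 1.75% in “Parental” and 10.98%, 17.6% and 29.1% in “Mother” voles (lowest, median and highest, 34 cytosines). The difference was -17.94 points (SE 2.90, limma adjusted p = 0.0026). The adjoining window was lower by 14.10 points in “Parental” voles (SE 2.69, limma adjusted p = 0.017), just under the minimum size. The remaining window of Cask, just past the gene, was at 0% in all measured animals of both groups.

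Wdr45, which takes part in autophagy, Otud5, a deubiquitinase, and Pim2, a serine/threonine kinase, lie near each other on chromosome 10. At Wdr45 (34807000-34807999, 15 cytosines) 5 of the 6 “Parental” voles had no methylated read and the highest had 0.26%, whereas “Mother” voles had 4.88%, 19.9% and 29.5% (lowest, median and highest). At Otud5 (34942000-34942999, 58 cytosines) the levels were 0.41%, 1.05% and 1.94% in “Parental” and 9.20%, 18.1% and 35.1% in “Mother” voles. At Pim2 (34977000-34977999, 22 cytosines) they were 0%, 0.32% and 0.59% in “Parental” and 1.60%, 15.9% and 24.8% in “Mother” voles. Neither group overlapped the other at any of the 3 genes, which was a condition for naming them. “Mother” replicate 3 lay at only 1.60% at Pim2. The differences were -18.87 points (SE 3.97, limma adjusted p = 0.0073) for Wdr45, -17.75 points (SE 3.75, limma adjusted p = 0.017) for Otud5 and -15.34 points (SE 3.21, limma adjusted p = 0.036) for Pim2. The call at Wdr45 was lost without “Mother” replicate 1, 2 or 3 (highest limma adjusted p = 0.11). That at Otud5 was lost without “Parental” replicate 1, 2, 3 or 4 (highest limma adjusted p = 0.065) and, by size alone, without “Mother” replicate 4. That at Pim2 was lost without any single animal other than “Mother” replicate 3 (highest limma adjusted p = 0.10), and also with reads summed over the window (limma adjusted p = 0.075).

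A window shared by Pqbp1, a splicing factor gene, and its neighbor Timm17b, a subunit of the mitochondrial import machinery, had the highest “Mother” mean of the called chromosome 10 windows (34999000-34999999). It rests on 4 cytosines, with 5 “Parental” voles at 0%, the highest at 1.25%, and “Mother” voles at 19.02%, 29.9% and 55.3%. The difference was -32.92 points (SE 6.15, limma adjusted p = 0.0032). Rap2c, a small GTPase on LG10 (18254000-18254999), also rests on 4 cytosines. All 5 measured “Parental” voles were at 0% there, which with as few as 48 reads allows a level of up to 6.25%, and “Mother” voles had 7.94%, 22.1% and 46.4%. The difference was -23.88 points (SE 5.56, limma adjusted p = 0.017), and the call was lost without any of the 5 measured “Parental” voles (highest limma adjusted p = 0.056). Intervals and limits of this kind cover counting error only, as RRBS reads are not independent molecules.

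**Figure D1:**
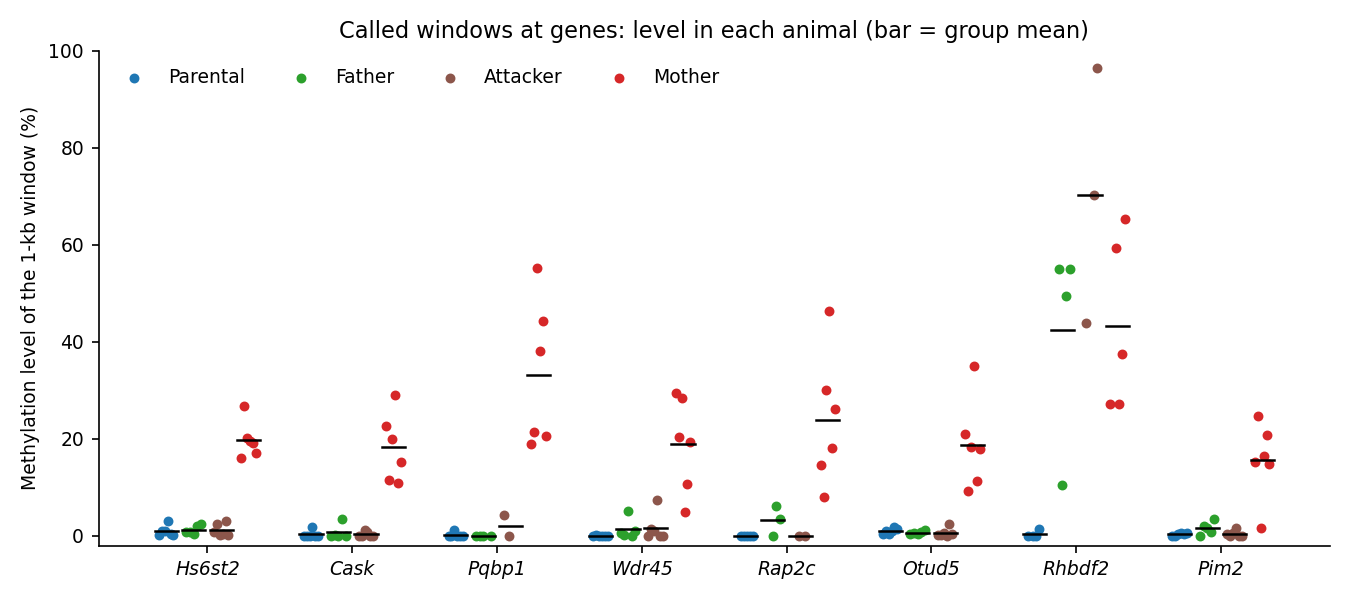
Methylation level (%) of the called 1-kb window at each of 8 genes, with a point for each animal measured and a bar at the group mean. At 7 genes the “Father” and “Attacker” males lie near the “Parental” males and “Mother” voles spread upward, whereas at Rhbdf2 the other males reach from 10.5% to 96.4%.

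Rhbdf2, an inactive rhomboid protein that guides a membrane protease, was the exception among the 8 genes (chromosome 7: 79642000-79642999, 3 cytosines with 33 to 147 reads summed per animal). The 4 measured “Parental” voles had 0% to 1.45%, and the 5 measured “Mother” voles had 27.2%, 37.6% and 65.3% (lowest, median and highest). The other males did not follow the “Parental” level, with 10.5% to 55.0% in 4 “Father” and 43.9% to 96.4% in 3 “Attacker” voles. It was the only called window on a chromosome or linkage group outside the stretches described next. Its difference was -42.98 points (SE 8.05, limma adjusted p = 0.029). The call was lost without “Mother” replicate 3 or 5 (highest limma adjusted p = 0.057), in edgeR, and in limma when unplaced scaffolds were left out. Without any 1 of the 4 measured “Parental” voles the window could not be tested. Losses in the other settings were not confined to Rhbdf2. In the stretches described next, edgeR called 5 windows against 7 by limma. With unplaced scaffolds left out, limma called 4 windows, all of them in these stretches.

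The other 7 gene windows fell in a pair of stretches of the assembly. The larger runs for 8302500 bp on chromosome 10 from Nudt11 to Ppp1r2c (33061714-41364213), and the smaller for 929353 bp on LG10 from Usp26 to Stk26 (17509924-18439276). Genes of these blocks, such as Shroom4, Syp, Hdac6, Bcor, Usp9x and Cask in the larger and Hs6st2 and Rap2c in the smaller, lie on the X chromosome in mouse and human. The blocks were delimited after the calls had been seen, so that the values given for them are a description. They held 188 of the 59237 windows tested, of which 7 were called (3.72%, against 0.0658% of all windows) and 17 had a limma adjusted p under 0.05 at any size (9.04%, against 0.154%). Of the 188 windows, 143 (76.1%) were higher in “Mother” voles, against 48.5% of all windows. The median difference of the 188 was -5.86 points, against 0.012 points over all windows. On chromosome 10 outside the block, 0 of 2554 windows were called by limma and 0 by edgeR, 5.17% had an unadjusted limma p under 0.05 (5.25% of all windows), and the median difference was -0.0005 points.

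The shift extended along the blocks beyond the called windows. Among genes with a symbol other than a LOC number, 54 in the blocks had a window, and at 50 of them the median difference was below 0. Neighboring genes can share a window, called windows are included, and no count for genes elsewhere is given. These gene counts are therefore a description. At least 1 window had a limma adjusted p under 0.05 at 13 of the genes, and 8 of them held a called window. Pqbp1 and Timm17b were counted separately for the same window. The 13 included Rbm3, Rpgr, Bcor, Med14 and Usp9x, named here after their values were seen, whose differences were under 15 points. Rbm3, a cold-induced RNA-binding protein, had 0% to 1.01% in “Parental” and 5.94% to 8.17% in “Mother” voles (-6.81 points, SE 0.39, limma adjusted p = 0.0023). Rpgr, a ciliary protein, had 0% to 0.65% in “Parental” and 7.30% to 12.4% in “Mother” voles (-9.65 points, SE 0.90, limma adjusted p = 0.0023). In both genes the spread within each group was small against the gap. Bcor, a corepressor of BCL6, had 28 windows with a median difference of -3.57 points, and 3 of them had an adjusted p under 0.05. Usp9x, a deubiquitinase, had -8.09 points at its window of smallest p (SE 1.08, limma adjusted p = 0.0023), and Med14, a subunit of the Mediator complex, had -8.48 points (SE 1.64, limma adjusted p = 0.036).

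Some windows of the block lay in the same direction but did not pass the test. At Syp, which encodes the synaptic vesicle protein synaptophysin, “Parental” voles had 0% to 0.20% in a window where “Mother” voles ranged from 0% to 41.3% (limma adjusted p = 0.93). A second window, shared with Prickle3, had 2.08% to 16.7% and 17.01% to 34.2% (limma adjusted p = 0.11). At Suv39h1, a histone methyltransferase, the window with the smaller p had 0% to 0.98% in “Parental” and 5.81% to 28.9% in “Mother” voles, and its adjusted p was 0.069. Other genes did not share the direction. Ccnb3, Was, Sytl5 and Hypm had positive median differences, of 12.7, 6.21, 8.44 and 6.64 points, none of them past the test. In the windows with the smallest p of these 4 genes, the “Parental” mean was between 79.7% and 98.0%.

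**Figure D2:**
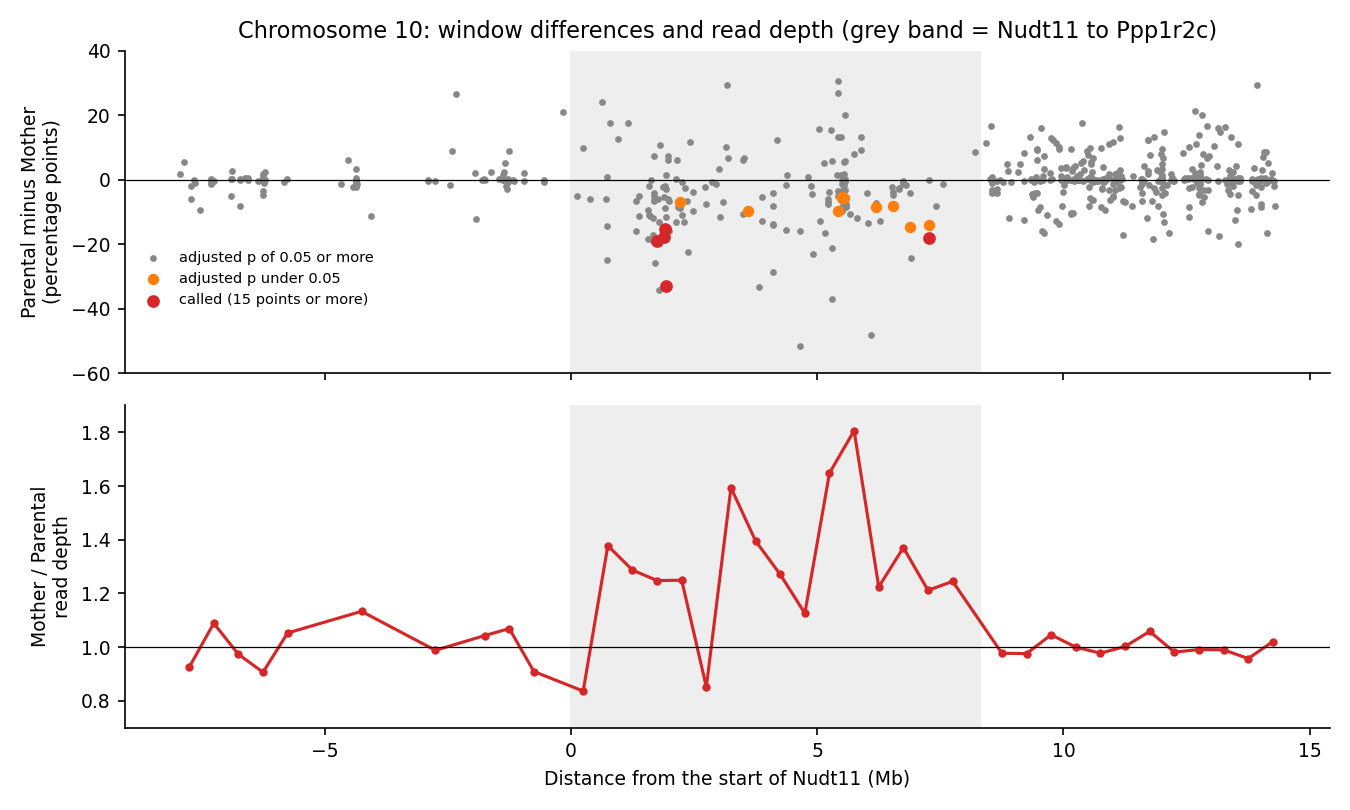
Chromosome 10 around the block from Nudt11 to Ppp1r2c (grey band), by distance in Mb from the start of Nudt11. Above, each point is a 1-kb window and its difference in level (“Parental” minus “Mother”, percentage points). Below, the ratio of “Mother” to “Parental” read depth in bins of 0.5 Mb ran from 0.84 to 1.81 inside the band and from 0.91 to 1.13 outside it.

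Read depth, which entered the window calls only through the minimum of 10 reads, differed between the groups over the same sequence. Depth was counted at cytosines read in at least 20 of the 23 animals and scaled so that the placed chromosomes other than X have a depth of 1. On chromosome X, which the comparison leaves out, “Parental” voles had 0.86, 0.94 and 0.98 and “Mother” voles 1.06, 1.19 and 1.28 (lowest, median and highest). In the chromosome 10 block the corresponding depths were 0.86, 0.88 and 0.92 in “Parental” and 1.21, 1.28 and 1.35 in “Mother” voles. The groups were apart in both, and all 17 males lay between 0.84 and 0.92 in the block. Outside it, depth on chromosome 10 was 0.99 to 1.01 in “Parental” and 0.99 to 1.00 in “Mother” voles, which overlapped. In the LG10 block, with 281 cytosines, the groups overlapped, because “Parental” replicate 1 had a depth of 1.19 while “Mother” voles had 1.12 to 1.32. The part of sex and of copy number in the window differences was not tested.

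**Figure D3:**
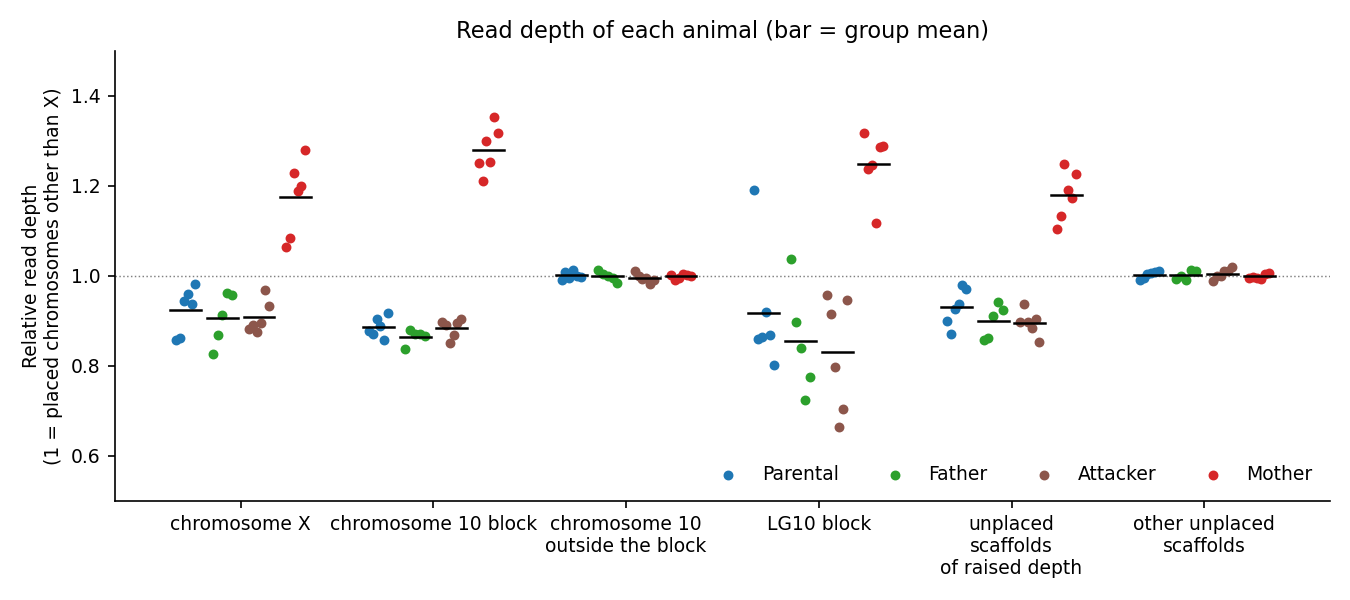
Read depth of each of 23 animals relative to the placed chromosomes other than X, with a point per animal and a bar at the group mean. “Mother” voles lie above 1 on chromosome X, in both blocks and on the scaffolds of raised depth, and at 1 elsewhere.

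The remaining called windows lay on scaffolds that the assembly does not place, where genes could not be assigned. Depth singled out 33 of the 225 unplaced scaffolds with at least 30 such cytosines, because “Mother” depth was at least 15% above that of “Father” and “Attacker” males, a ratio that uses no “Parental” animal and no methylation level. The lowest ratio among the 33 was 1.16, the highest below the limit was 1.14, and the chromosomes and linkage groups other than X lay between 0.98 and 1.03. The 33 scaffolds held 504 windows, with 26 called (5.16%, against 0.0658% of all windows), 57 at a limma adjusted p under 0.05 and a median difference of -5.19 points. On the other unplaced scaffolds, 5 of 15740 windows were called (0.0318%), and the median difference was 0.025 points. Of these 5, 3 were on JH996542.1 and JH996546.1, whose depth ratios were both 1.13. Together, the blocks and the 33 scaffolds held 692 windows and 33 of the 39 calls.

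The window of smallest p in the comparison was among them, at JH996472.1: 1834000-1834999 (40 cytosines). “Parental” voles had 0%, 0% and 0.76% and “Mother” voles 14.3%, 17.7% and 22.8% (lowest, median and highest), a difference of -18.17 points (SE 1.46, limma adjusted p = 0.0014). The highest level among “Father” and “Attacker” voles was 3.57%. JH996447.1, with 64 windows, held the most calls of any scaffold, 6, and its median difference was -8.37 points. Raised depth and raised “Mother” levels did not always go together. The largest ratios, of 2.07 on JH996634.1 and 1.78 on JH996735.1, went with median differences of 2.42 and 1.71 points and with no call among 27 and 25 windows.

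**Figure D4:**
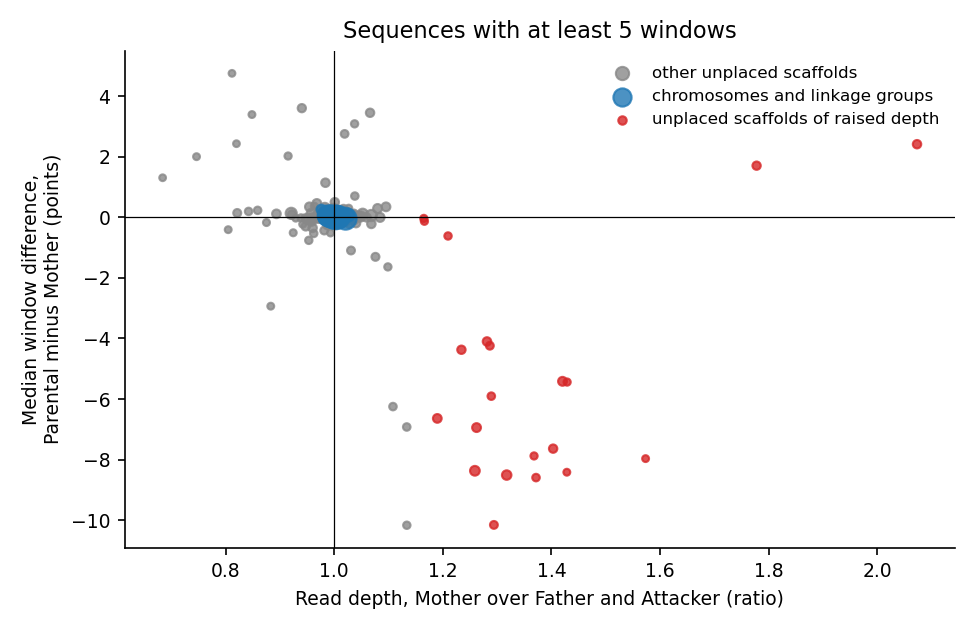
Each point is a chromosome, linkage group or unplaced scaffold with at least 5 windows, with its ratio of read depth (“Mother” over “Father” and “Attacker”) on the horizontal axis and its median window difference (“Parental” minus “Mother”, points) on the vertical axis. Of the 21 scaffolds of raised depth shown, 16 had a median difference below -2 points, against 4 of 141 other scaffolds and none of 27 chromosomes and linkage groups.

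The shift in the blocks and on the 33 scaffolds depended on the starting level. Where “Father” and “Attacker” males averaged under 10%, 387 of 417 windows were higher in “Mother” voles, with median levels of 0.85% in “Parental” and 9.60% in “Mother” voles. Where these males averaged 80% or more, 30 of 93 windows were higher in “Mother” voles, and the median level was 93.6% in “Parental” and 86.7% in “Mother” voles. In the rest of the genome the corresponding shares were 15292 of 30566 and 2879 of 6021 windows. Methylated windows thus tended to be lower, and unmethylated windows higher, in “Mother” voles over this sequence. Per animal, the mean of 77 such low windows in the chromosome 10 block was 1.06%, 1.96% and 2.50% in “Parental” and 8.72%, 9.60% and 11.96% in “Mother” voles. “Father” and “Attacker” males had 1.32% to 2.22% and 1.43% to 2.33%. Over 18442 low windows on the other placed chromosomes, “Parental” voles had 1.68% to 1.93% and “Mother” voles 1.71% to 1.99%, which overlapped.

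Cytosines of intermediate level were also counted, in the same animals and from the same reads, so that they are no independent support. The share of cytosines at a level of 20 to 60% was 4.13%, 5.27% and 5.84% in “Parental” and 23.1%, 25.6% and 27.5% in “Mother” voles on chromosome X (3219 cytosines, exact permutation test, two-sided, p = 0.0022, adjusted p = 0.0087). On all unplaced scaffolds it was 4.98%, 5.12% and 5.42% in “Parental” and 5.16%, 5.53% and 5.78% in “Mother” voles (176002 cytosines, exact permutation test, two-sided, p = 0.0152, adjusted p = 0.030). The groups overlapped there, and the difference of -0.34 points lost its significance at 30 to 70% and at 20 reads. Among these cytosines, the 3052 on the scaffolds of raised depth had 5.44% to 6.26% in “Parental” and 19.7% to 24.4% in “Mother” voles, whereas the 172950 on the rest had 4.96% to 5.42% and 4.90% to 5.49%. On placed chromosomes other than X the shares were 4.46% to 5.15% and 4.65% to 5.25% (exact permutation test, two-sided, p = 0.392, adjusted p = 0.522).

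Only 3 called windows were hypermethylated in “Parental” voles, and none lay at a placed gene. At JH996487.1: 1882000-1882999 (5 cytosines), “Parental” voles had 36.8%, 88.2% and 100% and “Mother” voles 0%, 2.13% and 15.1%, with 90.5% to 100% in the “Father” and “Attacker” males measured (limma adjusted p = 0.043). At JH996488.1: 1859000-1859999 (3 cytosines), “Parental” voles had 92.0%, 100% and 100% and “Mother” voles 68.7%, 77.8% and 80.6% (limma adjusted p = 0.010), and the other males ran from 78% to 100%, with 8 of 11 nearer to the “Parental” mean. Both scaffolds are among those of raised depth. At JH996539.1: 78000-78999 (3 cytosines), 4 “Parental” voles had 20%, 33.3% and 62.2% and 4 “Mother” voles had 0% (limma adjusted p = 0.043), and the other males ran from 0% to 33.9%, with 5 of 8 nearer to the “Parental” mean. These windows rest on few cytosines, and no called window of either direction adjoined another.

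A further stretch was higher in males, although its windows missed the minimum size, and it was singled out after its values were seen. It spans 2970 bp of JH996454.1 (5392779-5395748), where 41 cytosines were called by the Wald test, all higher in “Parental” voles. Over the 145 cytosines with at least 10 reads in all 23 animals, the mean level was 10.6%, 13.3% and 14.4% in “Parental” and 1.37%, 2.09% and 5.45% in “Mother” voles. “Father” and “Attacker” males, with 10.2% to 20.2% and 10.9% to 17.1%, all lay above the highest “Mother” vole. Of its 4 windows, 3 had a limma adjusted p under 0.05, of 0.042, 0.0059 and 0.011, with differences of 12.2, 8.42 and 14.1 points. Depth went the other way than in the blocks. It was 1.08, 1.14 and 1.43 in “Parental” and 0.47, 0.69 and 0.77 in “Mother” voles, with at least 0.91 in all males, whereas the whole scaffold had a ratio of “Mother” to “Father” and “Attacker” depth of 0.92. The part of copy number in the levels was not tested.

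**Figure D5:**
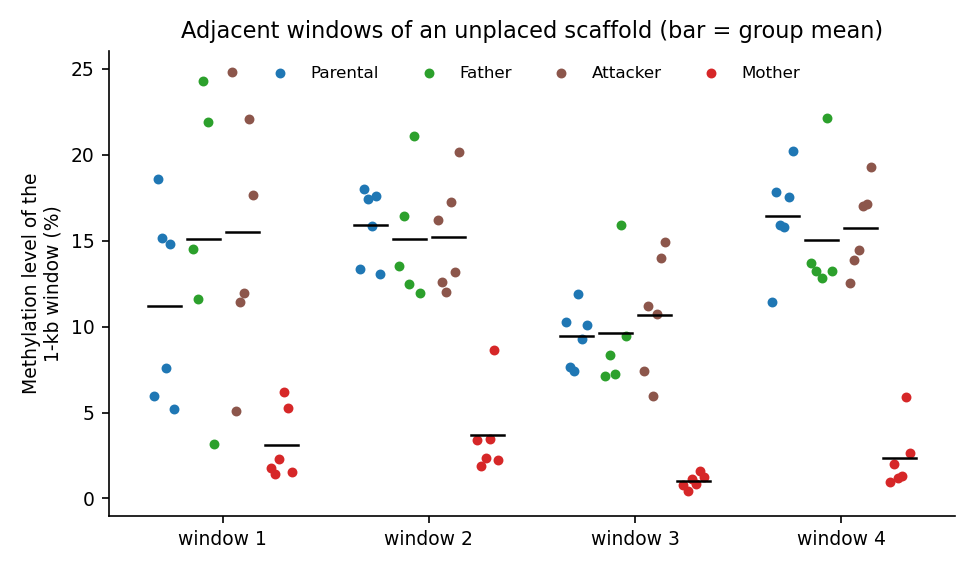
Methylation level (%) of the 4 adjacent 1-kb windows over the stretch of an unplaced scaffold where cytosines were higher in males, with a point per animal and a bar at the group mean. In windows 2 to 4 all “Mother” voles lie below all “Parental” voles, and so do they below all “Father” and “Attacker” males.

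Single cytosines gave a more even split of directions. The Wald test called 773 cytosines (0.0601% of those tested) at an adjusted p under 0.05 and a difference of at least 15 points, 390 higher in “Parental” (0.0303%) and 383 in “Mother” voles (0.0298%). In the blocks and on the scaffolds of raised depth, 209 were called, 184 of them higher in “Mother” voles. On the other placed chromosomes 375 were called, or 0.0401% of the cytosines tested there, and 244 of them were higher in “Parental” voles. At 202 of these 375, “Father” and “Attacker” males included both animals under 20% and animals over 80%. The share of all tested cytosines with such males is not given, so that the 202 do not set called cytosines apart from others. None of the 375 lay in a called window, but this sequence held only 1 called window, so that their absence from it is no result. In contrast to the Wald test, limma on levels of the arcsine scale called 0 cytosines, where 13850 had an unadjusted p under 0.05.

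Among cytosines whose groups did not overlap, a condition for naming them, those of smallest p near genes show both kinds. Those higher in “Parental” voles were in C8H10orf82 (chromosome 8: 86276334), in Vash2, a tubulin carboxypeptidase gene (chromosome 6: 77056427), and in Kcng2, a potassium channel subunit (chromosome 18: 63686922). Their levels were 75% to 100%, 100% in all 4 animals and 72.2% to 100% in “Parental” voles, and 0% to 14.04%, 0% to 43.3% and 0% to 35.4% in the 4 “Mother” voles measured. The other males took both extremes at each of the 3, with 2 of 5, 2 of 5 and 1 of 7 animals under 20% and 2, 3 and 3 over 80%. Among those higher in “Mother” voles, Arhgap8 (chromosome 15: 26378224) had 0% to 3.39% in “Parental” and 59.5% to 76.1% in “Mother” voles, with 5 of 8 other males under 20%. The remaining cytosines lie in the chromosome 10 block, near Tfe3, a transcription factor of lysosomal genes (34847969), and in Rpgr (36664598). There “Parental” voles had 0% and 0% to 4.18%, “Mother” voles 26.1% to 62.8% and 24.2% to 42.9%, and 10 of 10 and 10 of 11 other males were under 20%.

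Genes of parental care, neurogenesis and brain cell types held no called window. The 13 lists held 200 genes, of which 153 had a position, and 0 of their 582 windows were called by limma and 0 by edgeR. Over all windows limma called only 0.0658%, so that the lack of calls is no result about these genes. The lowest limma adjusted p was 0.48. An unadjusted p under 0.05 was found in 25 of the 582 windows, against 5.25% of all windows, and in 5.25% or fewer of the windows of 10 lists. The lists above that share were DNA methylation enzymes and readers (3 of 36 windows, 8.33%), dentate granule cells and neurogenesis (7 of 92, 7.61%) and astrocyte markers (1 of 19, 5.26%). The median difference of a list lay between -0.12 and 0.50 points. Among receptors for oxytocin, vasopressin, prolactin and steroids, 9 of 15 genes had 28 windows, and the lowest p was at Esr1, the estrogen receptor alpha gene, with 0% in all 6 “Parental” and 0% to 2.34% in 4 “Mother” voles; 42 reads at the least allow up to 7.14% there (limma unadjusted p = 0.046, adjusted p = 0.95). Th, the rate-limiting enzyme of dopamine synthesis, had 71.7% to 100% in “Parental” and 97.6% to 100% in “Mother” voles in its window of lowest p (limma adjusted p = 0.74).

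In the Wnt list, 31 of 38 genes had 163 windows. Of these, 7 had an unadjusted p under 0.05 (4.29%, against 5.25% of all windows), 5 of them higher in “Parental” voles. Axin2, a target and inhibitor of Wnt signaling, had the lowest p, with 0% to 0.70% in “Parental” and 0.60% to 1.80% in “Mother” voles (limma adjusted p = 0.48). In the list of dentate granule cells and neurogenesis, Neurog2, a proneural factor, had the lowest p, with 0.87% to 2.09% in “Parental” and 0.05% to 0.86% in “Mother” voles (0.96 points, SE 0.22, limma adjusted p = 0.58). Its groups did not overlap, as in 0.716% of all windows. Imprinted genes, which are methylated by parental origin, had 54 windows with a median difference of 0.50 points. The lowest p among them was at Grb10, with 13.2% to 31.3% in “Parental” and 5.64% to 22.7% in “Mother” voles (limma adjusted p = 0.94). Windows at markers of oligodendrocytes (36), microglia (3) and vessels (18) held none with an unadjusted p under 0.05, and those of astrocytes (19), GABAergic neurons (54) and CA pyramidal neurons (35) held 1, 2 and 1.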

How the data were processed

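RRBS libraries were made from 100 ng of DNA of the DG of each animal. After trimming with Trim Galore and Bismark alignment to the MicOch1.0 assembly, the authors deposited, per animal, counts of reads and of methylated reads at each CpG cytosine, without normalization and without pooling. Group and replicate came from the sample titles. The animals compared, the gene lists and the tests were chosen with earlier results of these data known.

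An animal's window level was the mean level of the kept cytosines with at least 10 reads in that animal, at least 3 of them. Windows needed levels in at least 4 animals of each group. Levels were arcsine-square-root transformed and tested with limma (trend, robust), with animals missing a level left out of that window's fit. Single cytosines were tested with a re-implemented beta-binomial Wald test in the manner of DSS (pseudocounts of 0.5 methylated reads and 1 read). All p-values across windows or cytosines were adjusted after Benjamini and Hochberg over the whole table. Per-animal summaries were compared with exact permutation tests. Fits were tested on simulated data.

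Genes were assigned from RefSeq spans of MicOch1.0 with 2 kb on either side, without strand or exons. Genes were named from called windows whose groups did not overlap, up to 12 per direction, and from called windows of listed genes. The 3 longest runs of adjacent called windows were to be named as well (there were none). The 3 cytosines of smallest p per direction near a gene were taken among those whose groups did not overlap. Blocks and scaffolds of raised depth were defined after the data had been seen.

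Alternatives covered the scale, test, window level and size, coverage minimum, strands, minimum difference, scaffolds, deepest cytosines, the replicate number as a block, and each animal left out. In edgeR, methylated and unmethylated reads were tested with the quasi-likelihood test.

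Python 3.11.15, numpy 2.4.6, scipy 1.17.1, R 4.3.3, limma 3.58.1 and edgeR 4.0.16 were used.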

Additional observations from a re-analysis of the deposited data

Results flagged for a closer look

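Several values stood apart from the others measured in their group by Dixon's criterion, in 8 of 49 groups of values. Chance gives about 1 in 20 only where values are not held at a floor. At Pqbp1, Wdr45 and Rhbdf2 all other measured “Parental” voles were at 0%, so that any value above 0% stood apart. In “Parental” voles these were replicate 1, with a relative depth of 1.19 in the LG10 block, replicate 4, with mean levels of 3.40% over 3 low windows of that block, 3.07% at Hs6st2 and 1.75% at Cask, replicate 3 with 1.25% at Pqbp1, replicate 2 with 0.26% at Wdr45 and replicate 5 with 1.45% at Rhbdf2. In “Mother” voles, replicate 3 had a mean level of 2.01% over the low windows of the unplaced scaffolds without raised depth.

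Chromosome X, which the comparison leaves out, held 49 called windows among 597 when it was kept, or 8.21%. Of these 49, 48 were higher in “Mother” voles, and the median difference of the 597 windows was -7.47 points.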

How the results depend on the processing

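With the number of windows called at 39, edgeR called 14 (2003 at an unadjusted p under 0.05), untransformed levels gave 7 and summed reads 62. A minimum of 25 points left 6 and no minimum 91. Without unplaced scaffolds 4 were called, and without the sequence of raised depth 3. With chromosome X kept, 55 were called outside it beside the 49 on it. These last 2 settings and the absence of a minimum size were chosen after seeing the data. Leaving out 1 animal gave 29 to 43. The count stayed within 1.5 times under the other coverage minimums, window sizes, strand sums and depth limits tried.

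Same-numbered animals did not deviate together (correlations from -0.024 to 0.039, 2 of 6 closest to their own number). The methylated share of all calls nonetheless tended to rise with the number, from 10.4% in “Parental” replicate 1 to 20.4% in replicate 6. In “Mother” voles it was 10.6% in replicate 1 and 14.5% in replicate 6. “Attacker” voles had 8.34% in replicate 1 and 38.7% in replicate 6, and “Father” voles 10.6% in replicate 1 and 21.1% in replicate 5. Whether the number marks a shared batch or order was not tested. With the replicate number as a block, limma called 0 windows (3156 at an unadjusted p under 0.05) and 0 cytosines (12400), and the limma adjusted p of the 8 gene windows ran from 0.069 at Cask and Pqbp1 to 0.28 at Rhbdf2 and Pim2. Untransformed levels ended the calls at 7 of the 8 gene windows, all but that at Hs6st2 (limma adjusted p = 0.029), with adjusted p from 0.10 at Cask to 0.53 at Rap2c.

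The 773 cytosines became 0 with limma on arcsine levels, 18896 at an unadjusted p, 1251 at 5 reads, 369 at 20 reads, 379 without unplaced scaffolds and 502 without the sequence of raised depth, and 683 to 765 with 1 animal left out. The mean level difference was -0.068 points as a median over windows and ran from -0.0087 to 0.25 with 1 animal left out. The intermediate share on unplaced scaffolds differed by -0.19 points at 30 to 70% (exact permutation p = 0.091) and by -0.27 at 20 reads (exact permutation p = 0.139), and by -0.40 to -0.28 with 1 animal left out. The cause of these changes was not tested. Called windows of 3 or 4 cytosines rest on as few as 33 reads in an animal, so that small differences were not detectable there.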
